A study of Mus musculus with 43 samples.

Results

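Interleukin 15, interleukin 7 and the receptor chains that read interleukin 15, interleukin 7 and interleukin 2 were followed as RNA in 9 sorted immune cell types of the mouse. The genes were Il15, Il7, Il15ra, Il2ra, Il7r, Il2rb and Il2rg, taken by their symbols in the annotation of the Affymetrix Mouse Gene 1.0 ST array. Of these 7 genes, 6 had a probe set, 1 each, among the 19752 genes with a probe set of their own symbol, and Il2rg was not analysed here. RNA came from male C57BL/6 mice aged 6 weeks, either 2 h after mice received 10000 U of interferon alpha under the skin (17 arrays) or at baseline (26 arrays), and no vehicle injection was labelled for the baseline mice. The spleen gave CD4+ and CD8+ T cells, regulatory T cells gated as CD4+ CD25+, gamma-delta T cells, NK cells, NKT cells, dendritic cells gated on CD11c and Flt3, and Ly6G+ neutrophils, and the peritoneal cavity gave F4/80+ macrophages. Interferon groups had 2 arrays, except macrophages with 1, and baseline groups had 3, except neutrophils with 2.

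Interleukin 2, interleukin 7 and interleukin 15 belong to the cytokines whose receptors share the common gamma chain, the product of Il2rg, and signal through JAK kinases and STAT5. Interleukin 15 is unusual in that the producing cell loads it onto its own IL-15 receptor alpha chain (Il15ra) and shows it to a neighbouring cell that carries the beta chain (Il2rb) and the common gamma chain, a route called trans-presentation that maintains NK cells and memory CD8+ T cells. Interleukin 2 uses the same beta and gamma chains, and its alpha chain (Il2ra, also called CD25) raises the affinity and marks regulatory T cells. Interleukin 7 comes mainly from stromal cells and keeps naive T cells alive through the IL-7 receptor alpha chain (Il7r).

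Promoter windows reach from 250 bases before to 50 after a transcription start in RefSeq on build GRCm38.p6, and 4 of the 7 genes matched, with 5 windows in all. The windows of the 3 measured receptor genes are shown because interferon changed their RNA in at least 1 cell type, with the matches to the searched motifs in capitals. The windows lie at chr2:11705043-11705342 (plus strand) and chr2:11705462-11705761 (plus strand) for Il15ra, chr2:11642542-11642841 (plus strand) for Il2ra and chr15:9529827-9530126 (minus strand) for Il7r.
Il15ra, upstream start: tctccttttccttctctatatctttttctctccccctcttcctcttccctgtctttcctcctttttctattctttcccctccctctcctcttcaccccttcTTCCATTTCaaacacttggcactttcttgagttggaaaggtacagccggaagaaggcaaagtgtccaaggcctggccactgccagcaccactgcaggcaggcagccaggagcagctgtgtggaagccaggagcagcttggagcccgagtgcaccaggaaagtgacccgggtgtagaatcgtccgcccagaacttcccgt
Il15ra, downstream start: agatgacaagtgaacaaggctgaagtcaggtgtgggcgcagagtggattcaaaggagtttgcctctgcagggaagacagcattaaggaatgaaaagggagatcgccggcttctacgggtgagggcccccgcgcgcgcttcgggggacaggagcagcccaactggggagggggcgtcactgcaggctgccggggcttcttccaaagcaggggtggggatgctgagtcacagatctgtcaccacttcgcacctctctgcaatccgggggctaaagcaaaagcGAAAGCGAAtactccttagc
Il2ra: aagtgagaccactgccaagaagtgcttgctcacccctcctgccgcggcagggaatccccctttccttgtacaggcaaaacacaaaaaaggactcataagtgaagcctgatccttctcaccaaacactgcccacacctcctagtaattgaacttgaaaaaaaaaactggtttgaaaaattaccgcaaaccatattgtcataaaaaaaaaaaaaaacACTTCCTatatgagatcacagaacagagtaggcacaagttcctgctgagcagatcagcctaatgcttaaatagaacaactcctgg
Il7r: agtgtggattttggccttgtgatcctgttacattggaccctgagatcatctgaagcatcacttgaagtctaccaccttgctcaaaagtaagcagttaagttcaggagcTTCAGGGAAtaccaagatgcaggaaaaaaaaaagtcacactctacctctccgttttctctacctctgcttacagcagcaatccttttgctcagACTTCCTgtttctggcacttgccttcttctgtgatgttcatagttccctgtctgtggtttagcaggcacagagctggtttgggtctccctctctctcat

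Searched on both strands were the pair of interferon regulatory factor half-sites GAAANNGAA, the interferon-stimulated response element, which is that pair with a further A at its end and so contains it, the STAT site TTCNNNGAA, the FOXO site GTAAACA and the ETS site AGGAAGT. The half-site pair occurred once in each Il15ra window, on the opposite strand 149 bases before the upstream start and on the gene's strand 30 bases after the downstream start, and 8.56% of all promoter windows in the table held it. Il7r held a STAT site 142 bases and an ETS site 49 bases before its start, and Il2ra held an ETS site 35 bases before its start. These motifs occurred in 8.3% (STAT site) and 9.35% (ETS site) of all windows. The full response element, present in 3.44% of all windows, and the FOXO site, present in 3.65%, had no match in the 5 windows, which says only that these letters are not in them. In the same annotation Il15ra lies at chr2:11705172-11733985, next to Il2ra at chr2:11642792-11693194. Il15 lies at chr8:82331624-82403252, Il7 at chr3:7572028-7613760, Il7r at chr15:9506159-9529941, Il2rb at chr15:78479256-78511621 and Il2rg at chrX:101264385-101268255.

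Intensities on the 43 arrays had medians of 6.71 to 6.97 on the log2 scale, and all levels here are log2 intensities. Defining markers were clear in most sorted types and weaker in gamma-delta T cells. Foxp3, for the regulatory T cell lineage factor, was 11.94 to 12.00 after interferon and 11.81 to 12.07 at baseline in regulatory T cells. Ncr1, for an NK cell receptor, was 13.35 to 13.42 after interferon and 13.29 to 13.60 at baseline in NK cells, and Ly6g was 12.75 to 12.76 after interferon and 12.21 to 12.86 at baseline in neutrophils. Gamma-delta T cells had their lineage factor gene Sox13 at 7.83 to 8.03 after interferon and 8.02 to 8.47 at baseline, little above the other types, and also carried the B cell gene Cd79a at 8.53 to 10.47 after interferon and 8.39 to 11.09 at baseline. NKT cells also carried the macrophage phagocytosis receptor gene Mertk at 9.32 to 10.52 after interferon and 7.07 to 8.70 at baseline. B cell transcripts were lower in neutrophils after interferon: 7 of 9 B cell markers were called lower, as were 2.85% of all genes, with summed linear intensities of 705 to 747 after interferon, against 3041 to 5414 at baseline. Of 8 dendritic markers 3 were called lower in neutrophils too, with sums of 948 to 1187 after interferon, against 3046 to 3860 at baseline, as was 1 of 9 macrophage markers. Labels left the tissue of CD8+ T cell baseline arrays 1 and 2 (source given as blood) and of macrophage baseline arrays 1 and 2 (preparation naming spleen) in doubt, and the titles were followed. Separate animals per array are not stated in the labels, and the p-values therefore cover array-to-array spread, which may be technical, and in sorted bulk RNA fewer expressing cells and less RNA per cell cannot be told apart.

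Il15, the ligand that is made and presented by the same cell, was highest at baseline in neutrophils, at 10.04 and 10.51. Macrophages followed at 7.81 ± 0.44, dendritic cells at 7.77 ± 0.31, NK cells at 7.53 ± 0.12 and gamma-delta T cells at 6.96 ± 0.26 (SD, n = 3 each). The lowest levels were those of NKT cells at 6.14 ± 0.43, CD8+ T cells at 5.53 ± 0.07, CD4+ T cells at 5.47 ± 0.62 and regulatory T cells at 5.37 ± 0.36 (SD, n = 3 each). Neutrophils exceeded macrophages by 2.46 (SE 0.303, limma adjusted p = 3.95e-08), and no other neighbours in this order were called different. A call here means a Benjamini-Hochberg adjusted limma p below 0.05 over all genes and a difference of at least 1 on the log2 scale, which is a 2-fold change. By that rule 23 of the 36 pairs of cell types differed in Il15, where 9.59% of all genes did so over the 36 pairs.

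After interferon Il15 rose in dendritic cells, NKT cells, macrophages, NK cells and neutrophils, and was not called in gamma-delta, regulatory, CD4+ or CD8+ T cells. Dendritic cells, the classical cells of interleukin 15 presentation, had 10.44 and 10.78 after interferon, against 7.71, 7.50 and 8.10 at baseline. Macrophages had 10.46 on their single interferon array, against 7.31, 8.14 and 7.98 at baseline. Neutrophils, already the highest, reached 11.88 and 12.04 after interferon, against 10.04 and 10.51 at baseline. In these 3 myeloid types the interferon arrays all lay above the baseline arrays, as they did for 17.02% (dendritic), 16.12% (macrophage) and 29.59% (neutrophil) of all genes. Dendritic cells changed by 2.84 (SE 0.303, 7.17-fold, adjusted p = 1.53e-08), macrophages by 2.65 (SE 0.383, 6.28-fold, adjusted p = 1.39e-05) and neutrophils by 1.69 (SE 0.332, 3.22-fold, adjusted p = 0.000481). The part of the lower B cell and dendritic markers in the neutrophil results was not tested. Both neutrophil baseline arrays carry a preparation wording that no interferon array has, so preparation and treatment cannot be told apart there. With preparation as a term, estimated from the other types, the neutrophil rise was 1.33. For comparison, 2.34% of all genes were called higher in dendritic cells, against 1.35% for macrophages and 2.43% for neutrophils.

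NK cells, which receive interleukin 15, also raised the ligand's own RNA, with 9.49 and 9.64 after interferon, against 7.62, 7.59 and 7.39 at baseline. The rise was 2.03 (SE 0.303, 4.10-fold, adjusted p = 2.01e-05), where 1.25% of all genes were called higher in NK cells. The NK interferon arrays carry a preparation wording that no baseline array has, so preparation and treatment cannot be told apart. The macrophage marker list of 9 genes summed to linear intensities of 1346 to 1390 after interferon and 1037 to 1130 at baseline in NK cells, with 0 of the 9 genes called. In macrophages the same list summed to 39772 on the interferon array and 38719 to 41698 on the baseline ones. Of 8 dendritic markers 1 was lowered in NK cells, as were 0.537% of all genes, with sums of 2013 to 2167 after interferon and 3275 to 4473 at baseline. Itgax, the CD11c gene, made up most of these sums, at 10.41 to 10.70 after interferon and 11.40 to 11.94 at baseline. Flt3 was only 5.87 to 6.07 after interferon and 5.53 to 5.98 at baseline, and the list median was 6.14 to 6.46 and 6.18 to 6.40. The part of these markers in the Il15 rise of NK cells was not tested.

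NKT cells had Il15 at 9.49 and 8.19 after interferon, against 6.20, 5.67 and 6.54 at baseline, and the 2 interferon arrays lay further apart than those of any other type. The rise was 2.70 (SE 0.303, 6.51-fold, adjusted p = 6.35e-08), and 2.89% of all genes were called higher in NKT cells. It was 2.05 without the first interferon array and 3.35 without the second. That first array also had the higher macrophage marker sum, 10959 against 4104 on the second, while the 3 baseline arrays had 8114, 3059 and 4567. It was also the higher interferon array in the dendritic sum, 4197 against 1768 on the second, with 5145, 1419 and 1630 at baseline, and in the neutrophil sum, 1237 against 540, with 646, 525 and 551 at baseline. Of the 9 macrophage markers 1 was raised in NKT cells, as were 1 of 9 neutrophil markers and 2 of 8 NK markers. Mertk was 10.52 and 9.32 after interferon, against 8.0, 7.07 and 8.70 at baseline, and Ncr1 was 11.04 to 11.18 after interferon, against 9.57 to 10.50 at baseline. The part of these markers in the Il15 rise was not tested. As in NK cells, the interferon arrays carry a preparation wording of their own, so preparation and treatment cannot be told apart.

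The 4 T cell types without a call were not tested against each other. Gamma-delta T cells had 7.79 and 7.58 after interferon, against 7.12, 6.66 and 7.10 at baseline, a difference of 0.72 (SE 0.303, adjusted p = 0.184) with no overlap of the arrays, where 10.66% of all genes were likewise higher without overlap. Of 8 NK markers 3 were lowered and 1 raised in gamma-delta T cells, with a median change of -0.926, and the B cell marker sum ran from 2879 to 11423 after interferon and from 2720 to 13699 at baseline, and the part of these markers in the Il15 level was not tested. Regulatory T cells had 5.83 and 5.95 after interferon, against 5.08, 5.26 and 5.78 at baseline, a difference of 0.52 (SE 0.303). Their arrays did not overlap either, where 17.33% of all genes were higher without overlap. CD4+ T cells had 5.70 and 5.76 after interferon, against 5.28, 4.97 and 6.16 at baseline, and the groups overlapped. CD8+ T cells had 5.37 and 5.63 after interferon, against 5.56, 5.59 and 5.45 at baseline, a difference of -0.03 (SE 0.303, 95% interval -0.65 to 0.59). In these types 0.901% (CD4+), 1% (CD8+), 1.11% (regulatory) and 1.53% (gamma-delta) of all genes were called higher.

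**Figure D1:**
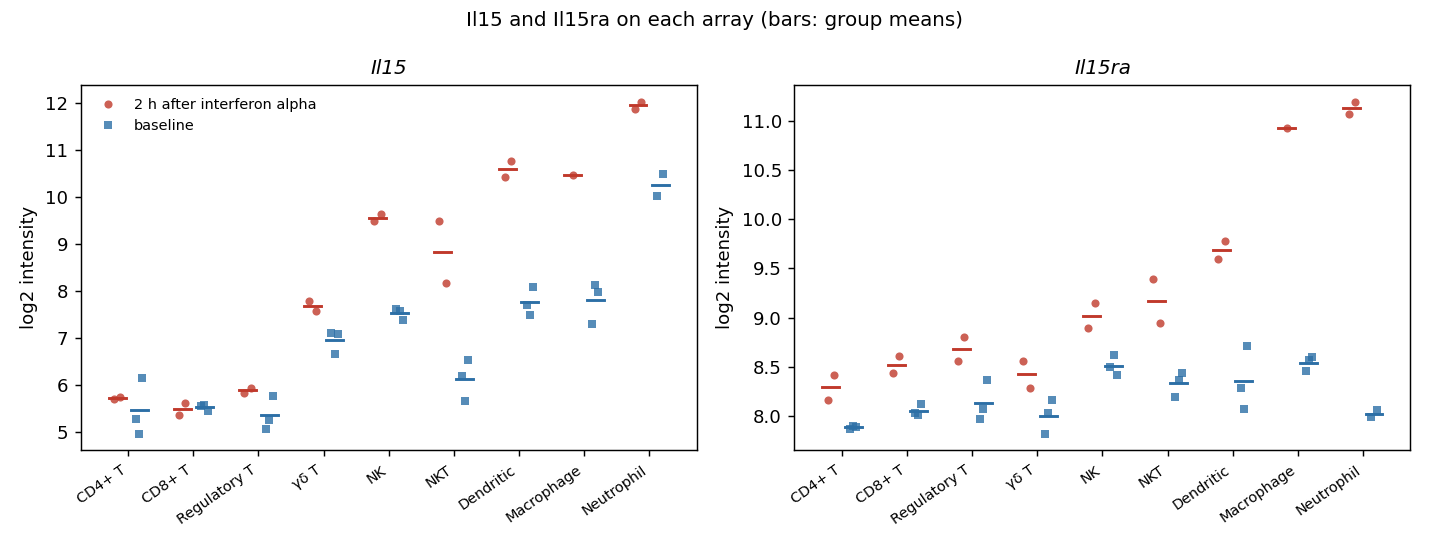
Log2 intensity of Il15 (left) and Il15ra (right) on each array, by cell type, with red circles for 2 h after interferon alpha, blue squares for baseline and bars for group means. Il15 on the 2 interferon arrays of neutrophils lies at 11.88 and 12.04, above every other array, and Il15ra lies above its baseline arrays in all 9 types, most clearly in neutrophils (11.07 and 11.20 after interferon).

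Il15ra, whose product presents interleukin 15 to neighbouring cells, differed little among the cell types at baseline. Baseline means ran from 8.54 in macrophages to 7.88 in CD4+ T cells, and 0 of 36 pairs of cell types were called, with 11 pairs at an adjusted limma p below 0.05 alone. Any difference among the 9 types was called by the F test (adjusted p = 0.000928), which called 56.4% of all genes. On baseline array 3 of each type alone, without neutrophils, that adjusted p was 0.0759.

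Interferon raised Il15ra most in neutrophils, with 11.07 and 11.20 after interferon, against 7.98 and 8.06 at baseline. Macrophages had 10.93 after interferon, against 8.46, 8.57 and 8.60 at baseline, and dendritic cells had 9.59 and 9.78 after interferon, against 8.28, 8.07 and 8.71 at baseline. Neutrophils rose by 3.11 (SE 0.180, 8.64-fold, adjusted p = 1.69e-14), macrophages by 2.39 (SE 0.208, 5.25-fold, adjusted p = 4.80e-10) and dendritic cells by 1.33 (SE 0.164, 2.52-fold, adjusted p = 3.08e-07). Presentation chain and ligand thus rose in the same 3 myeloid types. In neutrophils preparation and treatment cannot be told apart, and with preparation as a term the Il15ra rise was 2.94. Against baseline array 3 alone, whose preparation is described like that of the interferon arrays, the dendritic rise came to 0.98 (adjusted p = 0.00351), short of 2-fold.

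In NKT cells Il15ra was 9.40 and 8.94 after interferon, against 8.19, 8.37 and 8.44 at baseline. The difference of 0.84 (SE 0.164, adjusted p = 0.000704) was short of 2-fold, and it came to 1.06 without interferon array 2. In NK cells it was 8.89 and 9.15 after interferon, against 8.50, 8.62 and 8.42 at baseline. The difference there was 0.51 (SE 0.164, adjusted p = 0.0821), and in the 4 T cell types it ran from 0.41 in CD4+ T cells to 0.54 in regulatory T cells, none of them called. Every interferon array lay above every baseline array of its own type in all 9 types, where 10.66% of all genes did so in gamma-delta T cells and 29.59% in neutrophils, the extremes among the types.

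The size of the interferon change differed among cell types for Il15 (F test, adjusted p = 8.60e-06) and for Il15ra (adjusted p = 2.65e-09), while Il2ra (adjusted p = 0.0617), Il7r (0.283), Il2rb (0.794) and Il7 (0.969) were not called. That F test called 4.16% of all genes. Averaged over dendritic cells, macrophages and neutrophils, Il15 rose by 2.39, against 1.04 over the 6 lymphocyte types, a difference of 1.36 (SE 0.233, adjusted p = 0.000265). That lymphocyte mean joins NKT cells (2.70) and NK cells (2.03), both above neutrophils (1.69), with 4 T cell types at -0.03 to 0.72. Il15ra rose by 2.28 over the myeloid types and differed by 0.53 over the lymphocyte types, which left 1.75 between them (SE 0.126, adjusted p = 1.71e-11). Of all genes 0.547% were called higher in this myeloid minus lymphocyte contrast.

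Single types were then set against the mean change of the other 8, which called 5 of 54 changes, against 0.51% over all genes. Il15ra stood out in neutrophils, with a change 2.25 above that of the other types (SE 0.190, adjusted p = 8.05e-10, 1.04% of all genes called higher), and in macrophages, 1.44 above (SE 0.216, adjusted p = 0.000256, 0.258% called higher), whose single interferon array takes its spread from the other groups. Il15 stood out in dendritic cells, 1.52 above (SE 0.323, adjusted p = 0.00464, 0.896% called higher), and in NKT cells, 1.37 above (SE 0.323, adjusted p = 0.0397, 0.294% called higher). In CD8+ T cells the Il15 change was 1.71 below that of the others (difference -1.71, SE 0.323, adjusted p = 0.0228, 0.0405% of all genes called lower). These Il15 differences were the least secure. In NKT cells it was 0.72 (adjusted p = 0.693) without interferon array 1. Its adjusted p lay between 0.0502 and 0.156 when NKT baseline array 1 or 2, CD8+ T cell baseline array 1 or 2, neutrophil baseline array 2, interferon array 1 of NK, CD4+ T, CD8+ T or dendritic cells, either regulatory T cell interferon array or gamma-delta T cell interferon array 2 was left out. In dendritic cells it was 1.35 (adjusted p = 0.157) without interferon array 2, and in CD8+ T cells leaving out any 1 of that type's 5 arrays or the macrophage interferon array ended the call, with adjusted p of 0.0757 to 0.557.

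**Figure D2:**
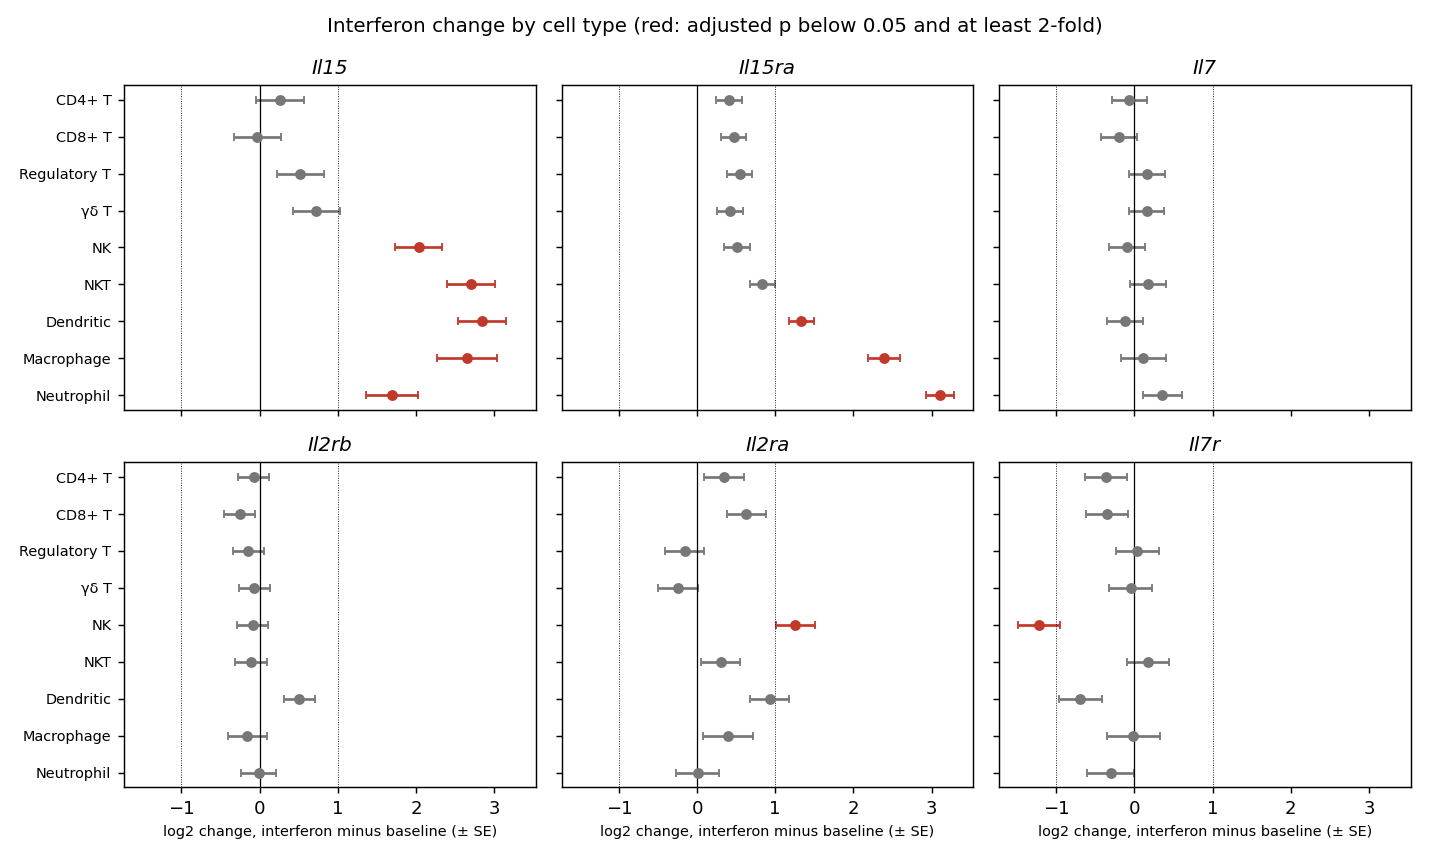
Change of each gene, interferon minus baseline on the log2 scale, in the 9 cell types, as a point with its standard error. Red points are changes of at least 2-fold with adjusted p below 0.05, and 10 of the 54 are red: Il15 in 5 types, Il15ra in 3, Il2ra and Il7r in NK cells.

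Il7, the survival cytokine of naive T cells, was near the bottom of the array's range on every array. Its level ran from 4.21 to 5.69 on the interferon arrays, with a median of 4.59, and from 4.01 to 5.25 on the baseline arrays, also with a median of 4.59. No array reached 7, and the mean level over all arrays was at the 7.6th percentile of the genes. No interferon change was called in any type, the largest being 0.36 in neutrophils (SE 0.251, adjusted p = 0.417), where the arrays had 5.69 and 4.68 after interferon, against 4.90 and 4.75 at baseline. Baseline levels gave 0 called pairs of cell types out of 36. At such low signal the absence of a call does not show that Il7 RNA stayed the same.

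Il2rb, the chain that passes on both interleukin 15 and interleukin 2 signals, divided the types into lymphocytes and myeloid cells. NK cells had 12.83 ± 0.23, NKT cells 12.83 ± 0.06 and regulatory T cells 12.25 ± 0.21 at baseline (SD, n = 3 each). Gamma-delta T cells followed at 11.74 ± 0.44, CD8+ T cells at 10.92 ± 0.32 and CD4+ T cells at 10.20 ± 0.26 (SD, n = 3 each). Neutrophils had 6.34 ± 0.20 (SD, n = 2), dendritic cells 5.89 ± 0.14 and macrophages 5.87 ± 0.15 (SD, n = 3 each). Among neighbours in this order the step between CD4+ T cells and neutrophils, 3.86 (SE 0.199, adjusted p = 2.37e-17), was the only one called. A further 4 steps among lymphocytes had adjusted p of 0.00213 to 0.0398 at less than 2-fold. In all 27 of 36 pairs were called, where 9.59% of all genes were over the 36 pairs.

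Interferon left no called change in Il2rb in any of the 9 types. NK cells had 12.67 and 12.81 after interferon, against 12.98, 12.57 and 12.94 at baseline, a difference of -0.09 (SE 0.199, 95% interval -0.49 to 0.32). The largest difference was in dendritic cells, 0.51 (SE 0.199, adjusted p = 0.152), with 6.54 and 6.24 after interferon, against 6.01, 5.91 and 5.74 at baseline. Cells with the highest Il2rb at baseline, NK and NKT cells, were also among the 5 types whose Il15 rose. Regulatory T cells (12.25) and gamma-delta T cells (11.74) came next in Il2rb and had no called Il15 change. The 3 myeloid types that raised Il15 and Il15ra had Il2rb below 7 in both states.

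Il2ra was highest in regulatory T cells, at 12.90 ± 0.01 at baseline (SD, n = 3), but CD25 is the gate by which these cells were sorted, so this level is not a finding. NKT cells had 10.41 ± 0.69, CD4+ T cells 10.17 ± 0.05 and gamma-delta T cells 9.70 ± 0.15 (SD, n = 3 each). NK cells had 7.10 ± 0.24, CD8+ T cells 6.99 ± 0.36, dendritic cells 6.38 ± 0.10 and macrophages 5.58 ± 0.28 (SD, n = 3 each), and neutrophils 6.01 ± 0.11 (SD, n = 2). Gamma-delta T cells exceeded NK cells by 2.60 (SE 0.225, adjusted p = 7.57e-11), and no other neighbours below regulatory and NKT cells were called different. Of the 28 pairs without regulatory T cells 18 were called. Over all 36 pairs 9.59% of all genes were called, and the share for the 28 pairs alone was not computed. The CD4+ T cell sort was labelled CD4+ with no exclusion of CD25, and Foxp3 in it was 9.26 to 9.46 after interferon and 9.27 to 9.53 at baseline, against 6.97 to 7.0 after interferon and 7.13 to 7.34 at baseline in CD8+ T cells. The part of Foxp3-bearing cells in the Il2ra level of CD4+ T cells was not tested.

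NK cells raised Il2ra after interferon, to 8.19 and 8.53, against 7.01, 6.92 and 7.37 at baseline. The rise was 1.26 (SE 0.251, 2.39-fold, adjusted p = 0.00148), where 1.25% of all genes were called higher in NK cells. All interferon arrays lay above all baseline arrays, as they did for 13.36% of all genes. The rise came to 1.08 (adjusted p = 0.0859) without interferon array 2, and to 0.99 (adjusted p = 0.0494), short of 2-fold, against baseline array 3 alone. That array's preparation wording differs from that of the NK interferon arrays, so preparation and treatment cannot be told apart here either. Dendritic cells had 7.05 and 7.56 after interferon, against 6.35, 6.29 and 6.48 at baseline, a difference of 0.93 (SE 0.251, adjusted p = 0.0162) just short of 2-fold, which was 1.19 without interferon array 1. CD8+ T cells had 7.52 and 7.71 after interferon, against 7.26, 7.14 and 6.57 at baseline, with a difference of 0.63 that was not called (adjusted p = 0.256). Regulatory T cells had 12.73 and 12.75 after interferon, against 12.89, 12.91 and 12.90 at baseline, which did not overlap but differed by only -0.16 (SE 0.251). Of all genes 18.46% were lower without overlap in regulatory T cells. Whether the NK change differed from that of the other 8 types was tested and not called, at 0.98 (SE 0.268).

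Il7r, the interleukin 7 receptor alpha chain, was high in all T cells. CD8+ T cells had 12.23 ± 0.13, CD4+ T cells 12.04 ± 0.29, gamma-delta T cells 11.60 ± 0.58, NKT cells 11.51 ± 0.74 and regulatory T cells 11.41 ± 0.11 at baseline (SD, n = 3 each), with no called step among them. NK cells followed at 9.89 ± 0.17, 1.51 below regulatory T cells (adjusted p = 1.34e-05), and dendritic cells at 8.12 ± 0.17, 1.77 below NK cells (adjusted p = 4.37e-07). Neutrophils at 6.20 ± 0.55 (SD, n = 2) and macrophages at 5.65 ± 0.10 (SD, n = 3) were lowest. In all 25 of 36 pairs were called, where 9.59% of all genes were over the 36 pairs.

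NK cells lowered Il7r, to 8.66 and 8.68 after interferon, against 10.09, 9.77 and 9.81 at baseline. The change was -1.22 (SE 0.272, adjusted p = 0.00502), and 0.537% of all genes were called lower in NK cells. Preparation and treatment cannot be told apart in it, because the NK interferon arrays carry a preparation wording of their own. With either interferon array left out the adjusted p was 0.0654 or 0.0681 at nearly the same size, and against baseline array 3 alone it was 0.115. Whether this change differed from that of the other 8 types was tested and not called, at -1.03 (SE 0.291, adjusted p = 0.145). The T cell marker list had 0 of 5 genes called in NK cells, with summed linear intensities of 1691 to 1887 after interferon and 1309 to 1928 at baseline. The part of T cell transcripts in the Il7r level of NK cells was not tested. Dendritic cells had 7.43 on both interferon arrays, against 8.31, 7.97 and 8.09 at baseline, a difference of -0.69 (SE 0.272, adjusted p = 0.151) that was not called although the arrays did not overlap, where 26.1% of all genes were lower without overlap. CD4+ T cells had 11.63 and 11.73 after interferon, against 12.34, 12.05 and 11.75 at baseline, and CD8+ T cells had 11.73 and 12.03 after interferon, against 12.08, 12.33 and 12.28 at baseline. Neither was called, and neither overlapped, where 11.62% (CD4+) and 18.94% (CD8+) of all genes were lower without overlap. The other 5 types differed by -0.30 to 0.17 and overlapped.

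**Figure D3:**
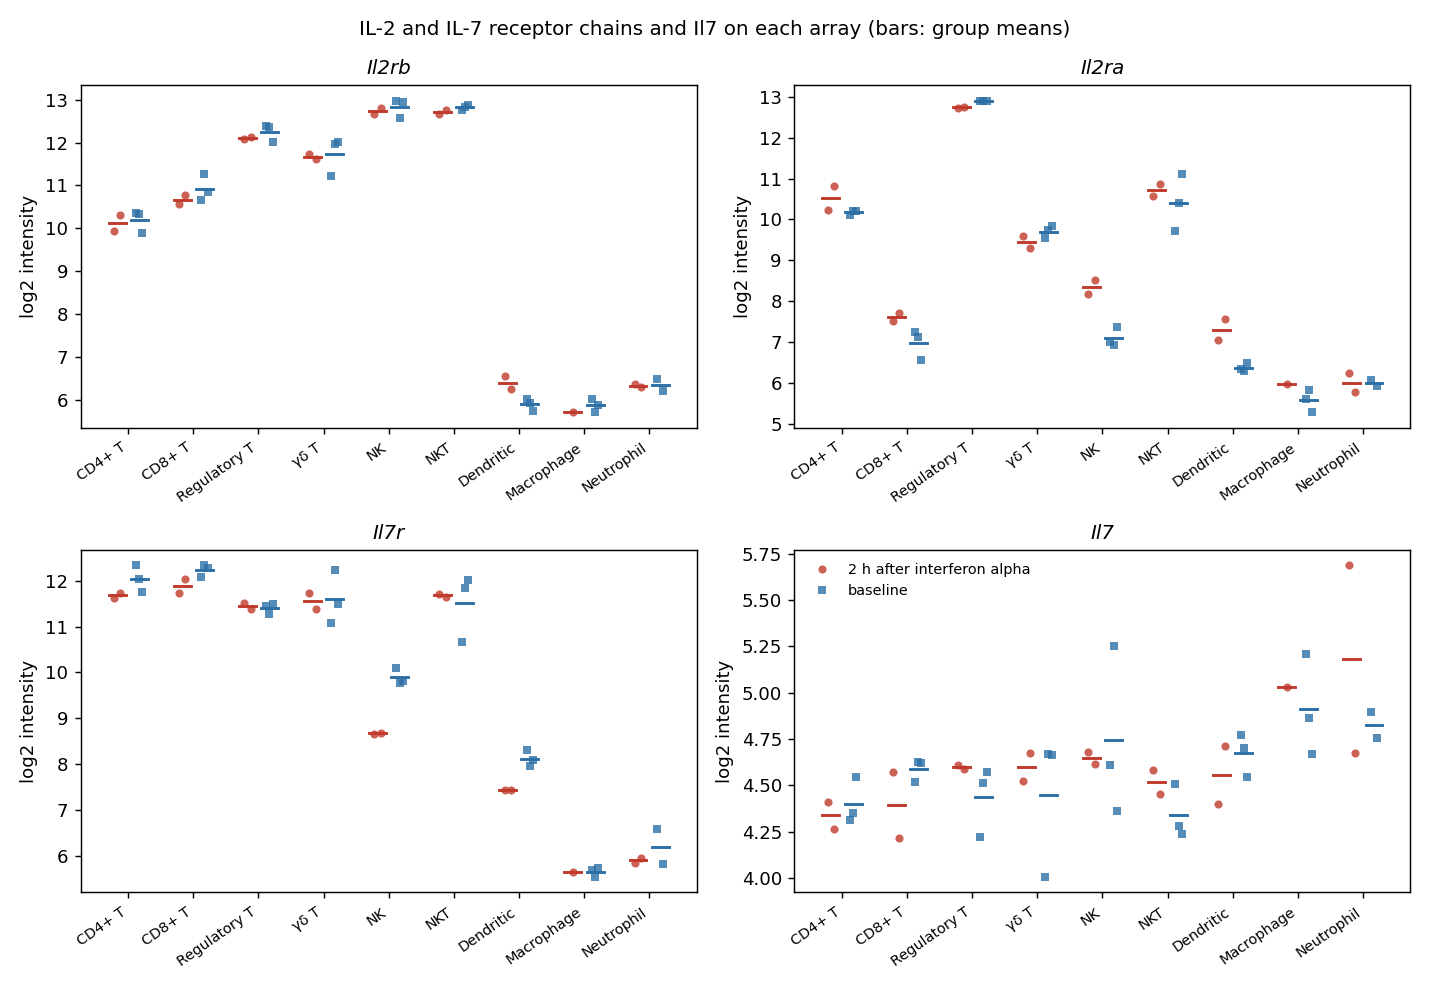
Log2 intensity of Il2rb, Il2ra, Il7r and Il7 on each array, by cell type, with red circles for 2 h after interferon alpha, blue squares for baseline and bars for group means. Il2rb lies near or above 10 in lymphocytes and below 7 in myeloid cells in both states, Il2ra of NK cells lies higher after interferon (8.19 and 8.53) and Il7r of NK cells lower (8.66 and 8.68), and Il7 stays between 4.01 and 5.69 on its own, narrower axis.

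Over all 54 pairings of gene and cell type, 9 changes were called higher and 1 lower, where 1.64% and 0.659% of all genes were called so over the 9 types. The gene means over the 9 types gave Il15 at 1.49 (SE 0.105, 2.81-fold, adjusted p = 1.64e-13) and Il15ra at 1.11 (SE 0.0572, 2.16-fold, adjusted p = 2.15e-17) as called, where 1.26% of all genes were called higher. With preparation as a term Il15ra averaged 0.996. Leaving out the macrophage interferon array drops that type, and the mean of the other 8 types was 0.95. Baseline array 3 alone gives no neutrophil value. The mean of the other 8 types was 0.75 there, against 0.86 for the same types with all baseline arrays. All of these averages were short of 2-fold. Il2ra averaged 0.38 (SE 0.0875, adjusted p = 0.000836) and Il7r -0.31 (SE 0.0948, adjusted p = 0.0126), both well short of 2-fold. Il7 averaged 0.05 (SE 0.0796) and Il2rb -0.05 (SE 0.0693). Set against the mean of the other 8 types at baseline, 20 of 45 levels of the 5 genes other than Il2ra were called, against 6.18% over all genes.

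The genes around these receptors were read from 8 lists of 65 genes, of which 61 were measured. None of 5 other common-chain cytokines (Il2, Il4, Il9, Il21, Tslp), 4 other receptor chains or 10 measured signalling genes was called in any cell type, and their median changes on average were 0.0008, -0.145 and -0.118, against -0.0054 over all genes. Of 8 feedback inhibitors Socs1, which blocks JAK kinases, was raised in all 9 types, from 1.08 in CD8+ T cells to 2.92 in neutrophils. Of all genes 1.26% were raised on average, and of 8 measured regulators of Il15 and of interferon responses 4 were, with a list median of 1.04. They were Irf7 at 2.55 (SE 0.0833), Stat2 at 2.46 (SE 0.0829), Nlrc5, an activator of MHC class I genes, at 1.44 (SE 0.102) and Irf1, a factor needed for interleukin 15 production in mice, at 1.14 (SE 0.0789). Irf9, a subunit of the interferon-activated complex ISGF3, averaged 0.94 (SE 0.0795) and was raised in CD4+ T cells, regulatory T cells and NK cells. Irf1 was raised in macrophages (2.38), neutrophils (1.41), dendritic cells (1.30) and CD8+ T cells (1.12), and Nlrc5 in neutrophils (3.16), macrophages (2.15), dendritic cells (1.65), NK cells (1.44) and NKT cells (1.16). Nlrc5 in gamma-delta T cells, at 0.97 (adjusted p = 0.0405), was just short of 2-fold.

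Targets of interleukin 2, 7 and 15 signals moved in some lymphocytes and dendritic cells. Of 11 survival and growth genes, 3 were raised in each of NK, gamma-delta T, NKT and dendritic cells, where 1.25%, 1.53%, 2.89% and 2.34% of all genes were, in that order. NK cells raised Pim1 (1.15), Pim2 (1.20) and Myc (1.79), and Bcl2l11, which encodes the death-promoting protein BIM, was lowered there (-1.23). Gamma-delta T cells raised Pim1 (1.30), Pim2 (1.36) and Ccnd2 (1.27), a cyclin gene, and lowered Bcl2l11 (-1.04), which CD8+ T cells also lowered (-1.31). Of all genes 0.683% were called lower in gamma-delta T cells and 0.319% in CD8+ T cells. NKT cells raised Pim2 (1.09), Myc (1.26) and Ccnd2 (1.16). Dendritic cells raised Pim1 (1.5), Ccnd2 (1.80) and the glucose transporter gene Slc2a1 (1.06). The list median was 0.56 in NK cells, where that of all genes was -0.0096, and 0.57 in gamma-delta T cells, where it was -0.0203. In NKT and dendritic cells the list median was 0.49, where that of all genes was -0.104 in NKT and -0.0323 in dendritic cells. Besides Socs1, 4 of the 8 feedback inhibitors were called in some type. Per pairing of gene and type, 1.64% were called higher and 0.659% lower over all genes and the 9 types. The share of all genes called in at least 1 type, which is larger, was not computed. Cish, a STAT5-induced inhibitor gene, was raised in NK cells (1.19) and neutrophils (1.64), and Socs2 in macrophages (2.77), while Dusp5 (-1.25) and Sh2b3 (-1.59) were lowered in neutrophils. These 4 genes, like Myc, Slc2a1, Nr3c1 and Furin, were chosen for mention after their values were seen. Many of these genes also answer to other cytokines, and which signal moved them was not tested.

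Of 10 regulators of Il7r 1 was called in any type, the glucocorticoid receptor gene Nr3c1 in neutrophils (1.04), where 2.43% of all genes were called higher. The list median in NK cells was -0.29. Of 5 genes for trafficking and shedding of membrane proteins 2 were called in at least 1 type and none on average. Sppl2a, an intramembrane protease gene, was raised in neutrophils (1.81), NKT cells (1.34) and dendritic cells (1.18), where 2.43%, 2.89% and 2.34% of all genes were, in that order. The protease gene Furin was lowered in neutrophils (-1.29), as were 2.85% of all genes. Sppl2a averaged 0.70 (SE 0.0896, adjusted p = 1.30e-07).

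**Figure D4:**
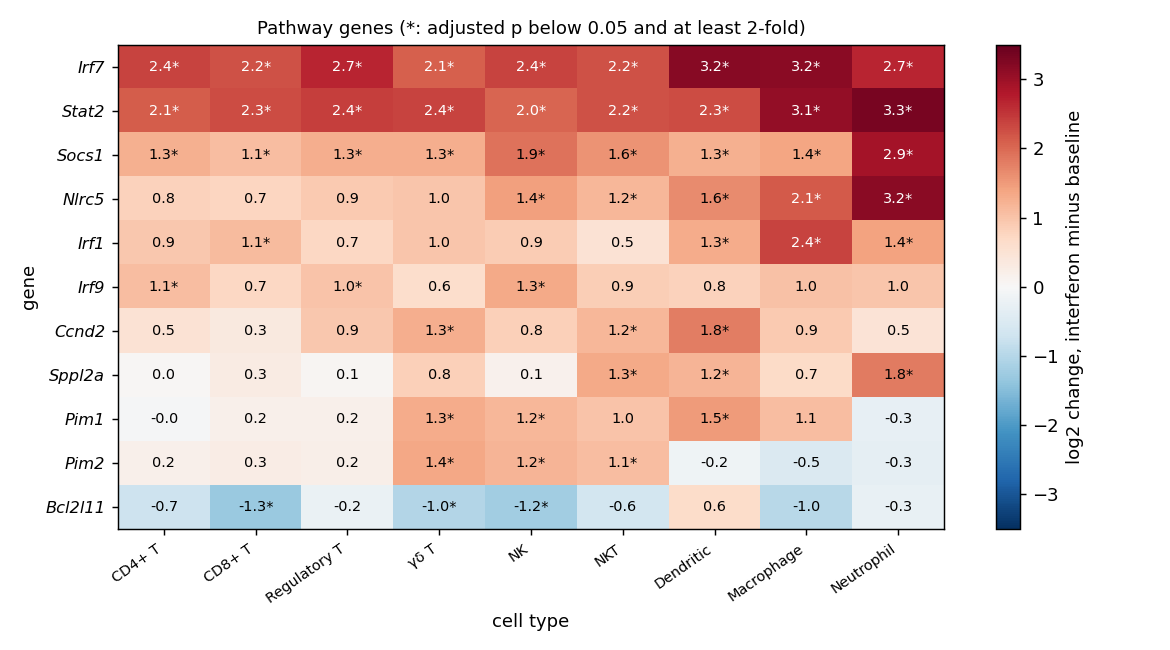
Change, interferon minus baseline on the log2 scale, of the 11 listed pathway genes that were called on average or in at least 3 cell types, with colour and printed value for each of the 9 types and an asterisk where the change was at least 2-fold with adjusted p below 0.05. Irf7, Stat2 and Socs1 carry asterisks in all 9 types, Nlrc5 in 5 and Bcl2l11, in blue, in 3.

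The genes whose 18 group means followed each member most closely were ranked by Pearson correlation among 9484 genes (9485 for Il7) whose group means spanned at least 1 on the log2 scale. The 18 means share arrays and normalisation, so r is a description. Il15 was followed most closely by Prr5l (r = 0.924), Ell2 (0.923) and Fbxo30 (0.918), and Il15ra by Pnp (0.944), Mtfr2 (0.929) and Tmem67 (0.929). Il2ra was followed by Ccr4 (0.947), Ikzf2 (0.936) and Sh3gl3 (0.927). Its means include those of regulatory T cells, which were sorted by CD25, so the gate enters this ranking. Il2rb was followed by Sh2d2a (0.974), Gimap5 (0.971) and Ikzf3 (0.967), and Il7r by Slamf6 (0.964), Traf3ip2 (0.959) and Xrcc5 (0.959). For Il7, whose own means spanned only 0.844, the nearest were Tlr4 (0.912), Fcho2 (0.904) and Snap23 (0.904).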

How the data were processed

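Il15, Il15ra, Il7, Il7r, Il2ra and Il2rb were read from the table of all 43 arrays. The deposited values are linear intensities per probe set, made with RMA in Affymetrix Power Tools, per the submitters' processing notes. Software versions and the genome build were not given in the sources here. Values were log2-transformed with no further scaling, and for a gene with several probe sets the brightest was used, which left 19752 genes. All 18 groups were fitted with limma 3.58.1 (lmFit, eBayes, R 4.3.3, 25 residual degrees of freedom), so the single macrophage interferon array borrowed its spread from the other groups. P-values are two-sided and adjusted by Benjamini-Hochberg over all genes within a comparison. The fit was tested on simulated data.

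Baseline arrays 1 and 2 share a preparation wording that no interferon array carries, so preparation was added as a term, and baseline array 3 was used alone (neutrophils have none). Interferon arrays of CD4+ T, NK and NKT cells carry a wording of their own, so their preparation and treatment cannot be told apart. Neutrophils have only baseline arrays 1 and 2, so the same holds for them. Other alternatives were replicate number as a block, quantile normalisation, dim genes left out, a variance trend with robust moderation, the mean of probe sets, adjusted p alone, and each array left out.

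Named pathway genes were called on average or in at least 3 cell types. The members, lists and alternatives were chosen with earlier results of these data known. The number of arrays limits the precision.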

Additional observations from a re-analysis of the deposited data

Results flagged for a closer look

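The interferon change of a gene differed between cell types by a test of the difference itself in 7 cases, all of them for Il15 or Il15ra. Il15ra changed more in neutrophils than in the mean of the other 8 types, by 2.25 (SE 0.190, limma adjusted p = 8.05e-10), and more in macrophages, by 1.44 (SE 0.216, adjusted p = 0.000256), where the single interferon array has no spread of its own. Il15 changed more in dendritic cells, by 1.52 (SE 0.323, adjusted p = 0.00464), and in NKT cells, by 1.37 (SE 0.323, adjusted p = 0.0397). The Il15 difference of CD8+ T cells was -1.71 (SE 0.323, adjusted p = 0.0228). The myeloid types exceeded the lymphocyte types by 1.36 for Il15 (SE 0.233, adjusted p = 0.000265) and by 1.75 for Il15ra (SE 0.126, adjusted p = 1.71e-11). For Il15 this is a difference of means, and the changes of NKT cells (2.70) and NK cells (2.03) were above that of neutrophils (1.69). Each group had at most 3 arrays, too few to look for arrays that stand apart within a group.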

How the results depend on the processing

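No called value changed sign under the 7 alternatives or with any of the 43 arrays left out, and 50 values that were not called changed sign and stayed uncalled. The mean of probe sets repeats the same values, because each gene had 1 probe set. Leaving dim genes out and fitting a variance trend alter only the spread and the adjusted p, so these settings could not change a sign. The number of called changes by cell type was 10 of 54, and 5 of 48 against baseline array 3 alone, which gives no neutrophil value, and besides the 2 neutrophil changes the calls lost that way were Il15ra in dendritic cells and Il2ra and Il7r in NK cells. On average over the types 2 of 6 genes were called, against 1 with the preparation term (Il15ra at 0.996) and 4 by adjusted p alone. Against baseline array 3 alone 1 was called, in an average that leaves out neutrophils. For changes set against the other 8 types the count was 5 of 54, and 1 of 48 against baseline array 3 alone, where Il15 came to -1.34 in CD8+ T cells, 1.47 in dendritic cells (adjusted p = 0.0787) and 1.23 in NKT cells (adjusted p = 0.787). With each array left out in turn, the counts ran from 8 to 11 by cell type, 1 to 2 on average, 3 to 6 against the other types, 2 to 3 for any difference among types and 29 to 30 for baseline levels with Il2ra included, while 2 for myeloid against lymphocyte types and 5 for baseline differences did not move. Il7 has no value with dim genes left out. Quantile normalisation brought the differences among types of Il2ra (adjusted p = 0.0105) and of Il7 at baseline (adjusted p = 0.0493) past the threshold. A replicate block gave 10 called changes by cell type, 2 on average and 5 against the other types. Deviations of same-numbered arrays correlated at -0.301 to 0.347, with 7 of 16 over 0.1. These were every pair of NK cells, NKT cells and neutrophils and 1 of CD4+ T cells, so the numbers were not taken as pairs. With 2 neutrophil arrays in each state, the 2 neutrophil correlations are equal by construction (0.347) and count as a single value. The cause of each difference between settings was not tested.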
